A study of Caenorhabditis elegans with 12 samples.

Results

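The comparison is between worms that lack circ-crh-1, the circular RNAs of the crh-1 gene, and wild-type worms at day 1 of adulthood. Members were taken by genotype from the sample labels, 4 libraries of crh-1(syb385) and 4 of wild type out of 12 libraries in the series, each from an independent biological replicate of whole worms. The mutant is the strain VDL786, a single outcrossed line in which CRISPR/Cas9 removed a piece of the intron downstream of the circularized exon. The wild type is N2. Worms of both genotypes were synchronized with hypochlorite and fed OP50 bacteria. The other 4 libraries, of crh-1(n3315), entered the filter on low counts, the scaling and the shared estimate of the spread, but no comparison. The study's methods for RNA collection, which cover RNA-seq, describe FUdR, a drug that blocks progeny, from the L4 stage unless stated otherwise. No exception is stated there for RNA-seq, but the labels of these samples name no FUdR, so exposure rests on that description alone. Poly(A)-selected RNA was read from both ends, and the number of reads on the exons of each gene is the measurement.

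CircRNAs arise when a splice donor joins an acceptor upstream of it, which closes one or a few exons into a ring without a poly(A) tail. Complementary sequences in the introns on both sides of an exon can fold on each other and bring those splice sites together, so that deletion of one of them removes the ring and spares the linear mRNA. The crh-1 gene encodes the worm CREB transcription factor, which is activated by phosphorylation and works with the coactivators CRTC-1 and CBP-1. In worms CREB and its partners are known from work on memory, energy metabolism and lifespan, and circRNAs as a class build up as worms age.

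The guide RNAs that cut the crh-1 intron define the only designed difference between the genotypes, so their targets are shown. Each is written 5′ to 3′ with the PAM, the NGG motif next to the Cas9 target, in capitals. It reads CCN where it lies on the opposite strand.
Sg1: ttaatctactctctgtaatcTGG
Sg4: attctggcacattgccgattTGG
Sg2: CCGcattgaaaatttccggcgaa
Sg3: CCGatttggcgattttttggtaa
All 4 targets are 23 nt long and belong to crh-1 on chromosome III. Sg1 and Sg4 carry the PAM at the 3′ end, and Sg2 and Sg3 at the 5′ end. Sg3 and Sg4 share a run of 9 nt on the same strand, the longest run shared by any of the guides, and the other combinations share at most 5 nt. The positions of the targets within the intron were not analysed here.

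The crh-1 gene (WBGene00000793) spans chromosome III:11657738-11693837 of the WBcel235 build, plus strand, and its reads were counted over 11 exon intervals that sum to 2051 nt. The interval of the circularized exon runs from 11688126 to 11688336. A further interval of 56 nt, from 11689762 to 11689817, lies downstream of it, and whether the deletion touches it was not analysed here. The gene had 849, 789, 871 and 958 counts in crh-1(syb385), against 775, 1017, 745 and 1050 counts in wild type. After scaling for depth these were 42.8, 44.7, 45.7 and 45.9 CPM (counts brought to one common library total after TMM correction in edgeR) in crh-1(syb385), against 38, 47.4, 40.6 and 43.6 CPM in wild type. The mutant libraries fell within the wild-type range. The log2 fold change of crh-1 was 0.08 (standard error 0.10, edgeR adjusted p = 0.64), and -0.07 with scaling by total counts. All p-values come from the quasi-likelihood F-test of edgeR and were adjusted over all tested genes by the Benjamini-Hochberg procedure. A count of the whole gene in poly(A)-selected RNA does not measure the circRNAs, so it does not check the deletion.

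Total counts were between 18172086 and 21404887 in crh-1(syb385) and between 16348586 and 22174508 in wild type. These counts carry no molecular identifiers, so limits from depth cover counting error only. Of 46748 genes in the count table, 14511 passed a filter on low counts and were tested. A gene was called upregulated or downregulated if its level changed by 2-fold or more and its edgeR adjusted p was under 0.05. In crh-1(syb385), 325 genes (2.24% of those tested) were upregulated and 650 (4.48%) were downregulated, so that 33.3% of the calls were upward. With scaling by total counts in place of TMM there were 243 and 967, and 20.1% were upward. That scaling moved the median log2 fold change of all tested genes to -0.19, against -0.05 with TMM, and all fold changes here are on the TMM scale unless stated otherwise. Wild-type libraries differed from each other more than mutant libraries did. On the second principal component, wild type replicate 3 lay at -44.4, the other wild-type libraries between 12.9 and 43.7, and the mutant libraries between -43.3 and -24.1. Wild type replicate 1 lay at the other end. With 1 of the 8 libraries left out, many counts moved by over 1.5 times, and for the main lists such values stand beside the count. With wild type replicates 2 and 4 alone, a setting chosen after the data were seen, 461 genes were upregulated and 536 were downregulated.

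Of the 975 called genes, 295 belonged to at least one of 83 gene lists that were assembled by function or family. The lists were written with earlier results of these data known, so their shares of called genes are a description and not a test. The lists differed widely in the share of their members that changed. Cuticle collagens and yolk proteins had many upregulated members, lipases, lysozymes, zona pellucida domain proteins and sensory cilia genes had many downregulated ones, and P450 enzymes and lectins had both. The plot of calls per list sets these shares beside those of all tested genes.

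**Figure D1:**
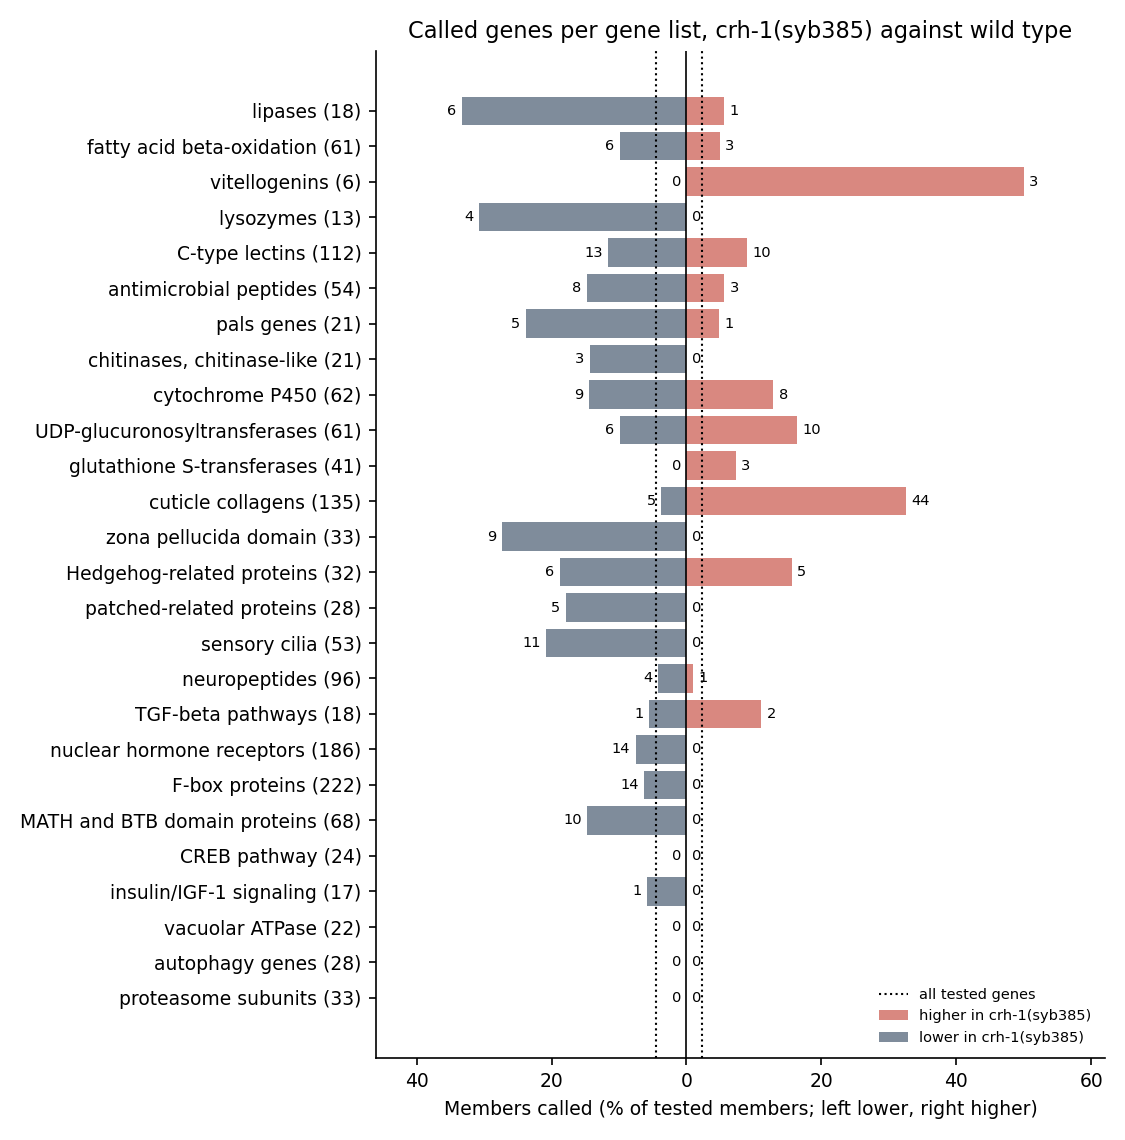
Share of the tested members of 26 gene lists that were upregulated (right, red) or downregulated (left, grey) in crh-1(syb385) against wild type, in percent, with the number of called members at each bar and the number tested after each name. Dotted lines mark the shares over all tested genes, 2.24% upward and 4.48% downward. Cuticle collagens had 44 upregulated of 135 tested members, and 6 of 18 lipases were downregulated.

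Genes of lipid breakdown in the lysosome showed some of the largest losses of RNA in crh-1(syb385). Of 18 tested lipases, 6 were downregulated and 1, lips-5, was upregulated, with a list median of -0.25 on the log2 scale. The other downregulated members were fil-1 (-2.89, a call kept in 3 of 8 fits with a library left out), lips-9 (-1.88) and lipl-6 (-1.64). The lysosomal lipases lipl-1, lipl-2 and lipl-3 are known to be induced when worms fast. For lipl-1 the level was 0.857, 0.453, 0.367 and 0.240 CPM in crh-1(syb385), against 15.7, 4.57, 8.72 and 14 CPM in wild type. For lipl-2 it was 0.403, 0.0566, 0.839 and 0.671 CPM in crh-1(syb385), against 18.7, 3.87, 7.19 and 12.5 CPM in wild type. For lipl-3 it was 1.06, 0.849, 1.21 and 2.44 CPM in crh-1(syb385), against 62.4, 14.6, 9.31 and 33.7 CPM in wild type. In each of the 3 genes every mutant library lay below every wild-type library, and wild type replicate 1 was the highest. The log2 fold changes were -4.48, -4.39 and -4.41, with edgeR adjusted p-values of 3.96e-05, 0.000157 and 7.72e-05. The relatives lipl-4, linked to long life in worms, and lipl-5 were chosen after their values were seen, with log2 fold changes of -1.05 (edgeR adjusted p = 0.0554) and 0.22 (edgeR adjusted p = 0.557).

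Fatty acid oxidation had members that moved in both directions. Of 61 tested genes for fatty acid activation and beta-oxidation, 6 were downregulated and 3 upregulated, shares of 9.84% and 4.92% against 4.48% and 2.24% of all tested genes, and the list median was 0.11 (-0.04 with total count scaling). The downregulated count was between 2 and 5 in every fit with 1 library left out, lowest without wild type replicate 1, and 6 were upregulated without wild type replicate 3. The carnitine palmitoyltransferase cpt-3, which carries fatty acids into mitochondria, measured 3.13, 1.36, 3.93 and 3.93 CPM in crh-1(syb385), against 13.3, 13, 8.93 and 16.1 CPM in wild type (log2 fold change -2.05, standard error 0.28, edgeR adjusted p = 0.000216). The groups did not overlap. For the acyl-CoA synthetase acs-2, another gene known from fasting, the values were 150, 259, 123 and 200 CPM in crh-1(syb385), against 1160, 405, 103 and 438 CPM in wild type. Wild type replicate 3 fell below all mutant libraries. The log2 fold change of acs-2 was -1.52 (edgeR adjusted p = 0.0413), and when libraries were left out singly the call held in 1 of 8 fits, with a log2 fold change of -0.76 without wild type replicate 1. The peroxisomal acyl-CoA oxidase acox-1.4 went the other way, with 18.2, 16.4, 17.7 and 17.1 CPM in crh-1(syb385), against 2.45, 4.06, 3.16 and 3.82 CPM in wild type. Both groups were tight and well apart, and the log2 fold change was 2.36 (standard error 0.17, edgeR adjusted p = 1.84e-06). The related oxidase acox-1.2 rose by 1.12 on the log2 scale (edgeR adjusted p = 0.00512), a call lost without wild type replicate 1. Among 23 tested genes of fatty acid synthesis, the elongase elo-2 was upregulated with 155, 142, 146 and 139 CPM in crh-1(syb385), against 82.8, 57.2, 70.3 and 35 CPM in wild type (log2 fold change 1.25, edgeR adjusted p = 0.000387). The acyl-CoA synthetase acs-1, which acts on branched-chain fatty acids, had 205, 198, 177 and 181 CPM in crh-1(syb385), against 63.8, 98.5, 78.8 and 66.7 CPM in wild type (log2 fold change 1.30, standard error 0.13, edgeR adjusted p = 1.26e-05). Neither gene had a wild-type library within the mutant range. The desaturase fat-3 was downregulated at 118, 120, 99.7 and 108 CPM in crh-1(syb385), against 421, 168, 109 and 198 CPM in wild type, with wild type replicate 3 inside the mutant range. Its log2 fold change was -1.01 (edgeR adjusted p = 0.0206), and -0.50 without wild type replicate 1. Its call was lost there and without replicates 1, 3 or 4 of crh-1(syb385).

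The called genes of the yolk and intestine lists were upregulated in crh-1(syb385). Vitellogenins are yolk proteins made in the intestine of the adult and taken up by oocytes, and all 6 vit genes were tested. Summed over the list, they made 55700, 60400, 50600 and 58500 CPM in crh-1(syb385), against 35600, 42000, 22100 and 36800 CPM in wild type, without overlap. In bulk RNA, a difference in the number of cells of a type and a difference in RNA per cell cannot be told apart. Upregulated were vit-1, vit-3 and vit-4, and the adjusted p alone was also passed by vit-5 and vit-6, which were chosen after their values were seen. For vit-1 the level was 3470, 2990, 3080 and 3310 CPM in crh-1(syb385), against 89.5, 1590, 889 and 532 CPM in wild type. Wild type replicate 1 was far below the other wild-type libraries, and without it the log2 fold change of 2.05 (standard error 0.50, edgeR adjusted p = 0.0113) became 1.69. For vit-6 it was 18900, 21200, 17100 and 20200 CPM in crh-1(syb385), against 13100, 14900, 7810 and 13600 CPM in wild type (log2 fold change 0.65, standard error 0.16, edgeR adjusted p = 0.0132). The genes vit-3, vit-4 and vit-5 are near-identical copies, and vit-1 and vit-2 resemble each other, so reads may have been split between them and single values are uncertain. Both called genes of a 13-member intestine list rose, a share of 15.4% against 2.24% of all tested genes. The list as a whole was mixed, with 8 positive and 5 negative log2 fold changes and a median of 0.21. By the adjusted p alone 5 of its members were higher and 1 was lower. The peptide transporter pept-1, which takes up dietary di- and tripeptides, had 94.1, 106, 96.2 and 98.2 CPM in crh-1(syb385), against 40.7, 56.0, 30.9 and 35.2 CPM in wild type (log2 fold change 1.27, standard error 0.15, edgeR adjusted p = 7.04e-05). The actin of intestinal microvilli, act-5, had 516, 586, 444 and 510 CPM in crh-1(syb385), against 56.1, 316, 262 and 121 CPM in wild type (log2 fold change 1.44, standard error 0.35, edgeR adjusted p = 0.0114). Wild-type values of act-5 were widely spread, yet the highest stayed below the lowest mutant value.

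**Figure D2:**
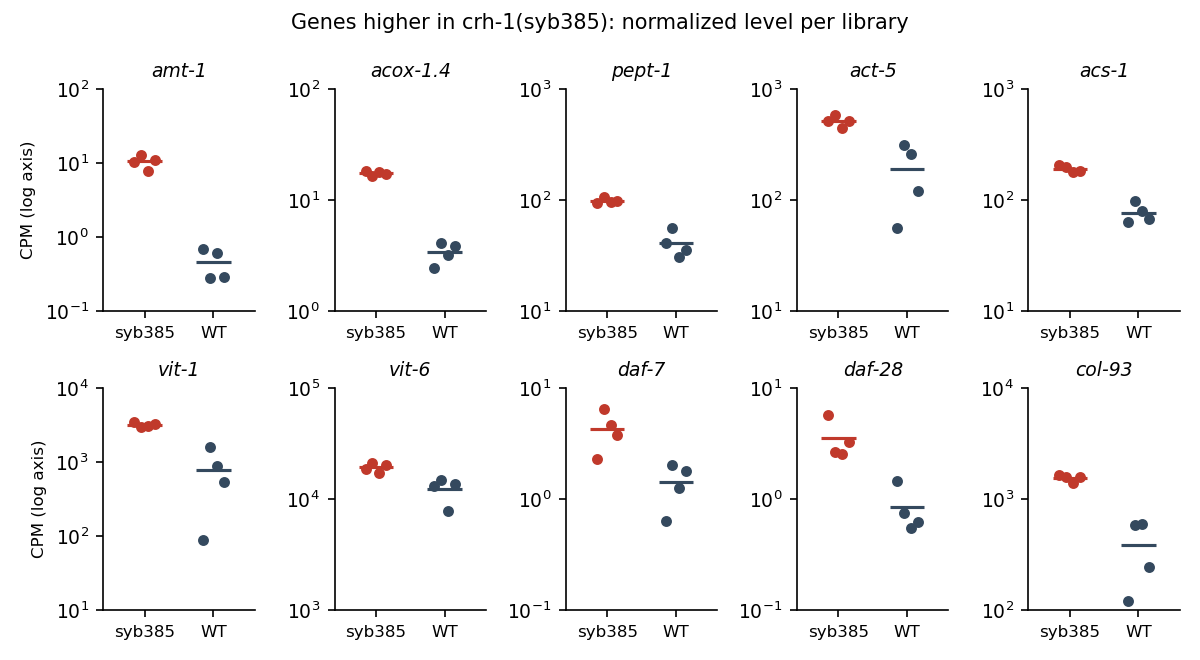
Level of 10 genes in each library, in TMM-scaled CPM on log axes, for crh-1(syb385) (red, left in each panel) and wild type (blue, right), with a horizontal line at the mean of 4 libraries. The mutant libraries lay above all wild-type libraries in each of the 10 panels, while wild-type values of vit-1, act-5 and col-93 were widely spread.

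Several of the largest falls were in genes known from work on lifespan, which are described singly because they do not form one list. In worms, DAF-16 is the transcription factor held in check by the insulin receptor DAF-2 and the kinases AKT-1 and AKT-2. The metallothionein mtl-1, a stress gene that DAF-16 is known to activate, had 2.72, 1.30, 1.05 and 1.96 CPM in crh-1(syb385), against 39.1, 22, 89.2 and 102 CPM in wild type (log2 fold change -5.15, standard error 0.49, edgeR adjusted p = 1.23e-05). The related mtl-2, chosen after its values were seen, had a log2 fold change of -0.36 (edgeR adjusted p = 0.443). The noncoding RNA tts-1, known for its abundance in long-lived daf-2 mutants, fell to 38, 89.8, 64.6 and 93.2 CPM in crh-1(syb385), against 1160, 517, 808 and 955 CPM in wild type (log2 fold change -3.59, standard error 0.29, edgeR adjusted p = 2.76e-06). For the flavin monooxygenase fmo-2, induced in several long-lived states, the level was 4.99, 6.96, 6.03 and 6.56 CPM in crh-1(syb385), against 126, 45.7, 29.1 and 96.1 CPM in wild type (log2 fold change -3.59, standard error 0.36, edgeR adjusted p = 1.67e-05). These 3 genes had no overlap between the genotypes, and the call of each held whichever of the 8 libraries was left out. Of 5 tested flavin monooxygenases, fmo-1 was downregulated too and fmo-3 upregulated (log2 fold changes -1.31 and 1.29, edgeR adjusted p-values 0.0108 and 0.00145), the first of these calls being lost without wild type replicate 1. The small heat shock protein hsp-12.6 was at 0.958, 1.25, 1.15 and 1.05 CPM in crh-1(syb385), against 9.71, 5.46, 4.96 and 6.03 CPM in wild type (log2 fold change -2.56, edgeR adjusted p = 4.74e-05). It was the one called gene of 10 tested small heat shock genes.

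Further genes with known roles in stress or lifespan were called as well, in both directions. Downward calls were also the more frequent over all tested genes, at 4.48% against 2.24% upward. The hydrophilic LEA protein gene lea-1, tied to tolerance of drying, measured 359, 507, 357 and 472 CPM in crh-1(syb385), against 1330, 1010, 805 and 1420 CPM in wild type (log2 fold change -1.43, standard error 0.18, edgeR adjusted p = 0.00012). The alcohol dehydrogenase adh-1 had 89, 136, 102 and 115 CPM in crh-1(syb385), against 1210, 499, 237 and 703 CPM in wild type (log2 fold change -2.58, edgeR adjusted p = 0.000145). Neither gene overlapped between genotypes. The extracellular superoxide dismutase sod-4 had 10.9, 13.8, 11.4 and 11.3 CPM in crh-1(syb385), against 31.2, 22.4, 26.3 and 23.5 CPM in wild type (log2 fold change -1.13, edgeR adjusted p = 0.000157). Its relative sod-3, chosen after its values were seen, was not called and overlapped between genotypes (log2 fold change -0.31, edgeR adjusted p = 0.47). The ferritin ftn-1, an iron store, had a log2 fold change of -1.93 (edgeR adjusted p = 0.00059), and the trehalose synthase tps-1 one of -1.24 (edgeR adjusted p = 0.00464), a call lost without wild type replicate 1 (-0.95). Among 17 tested genes of insulin/IGF-1 signaling, akt-2 alone was called, with 13.3, 14.7, 13.1 and 12.6 CPM in crh-1(syb385), against 33.9, 24.9, 22.1 and 35 CPM in wild type (log2 fold change -1.11, standard error 0.16, edgeR adjusted p = 0.000359). Its lowest wild-type library stood above all mutant libraries. The log2 fold change of daf-16 itself was -0.45 (edgeR adjusted p = 0.0774) and that of daf-2 was -0.56 (edgeR adjusted p = 0.0396, under 2-fold), both chosen after their values were seen. Of 12 tested dod and dao genes, most of them named for lying downstream of DAF-16, dod-17 and dod-24 were upregulated (log2 fold changes 2.13 and 1.57) and dod-3 was downregulated (-1.61), with edgeR adjusted p-values of 0.00224, 0.000329 and 0.00237. In long-lived daf-2 mutants dod-17 and dod-24 are known to be low and dod-3 to be high.

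**Figure D3:**
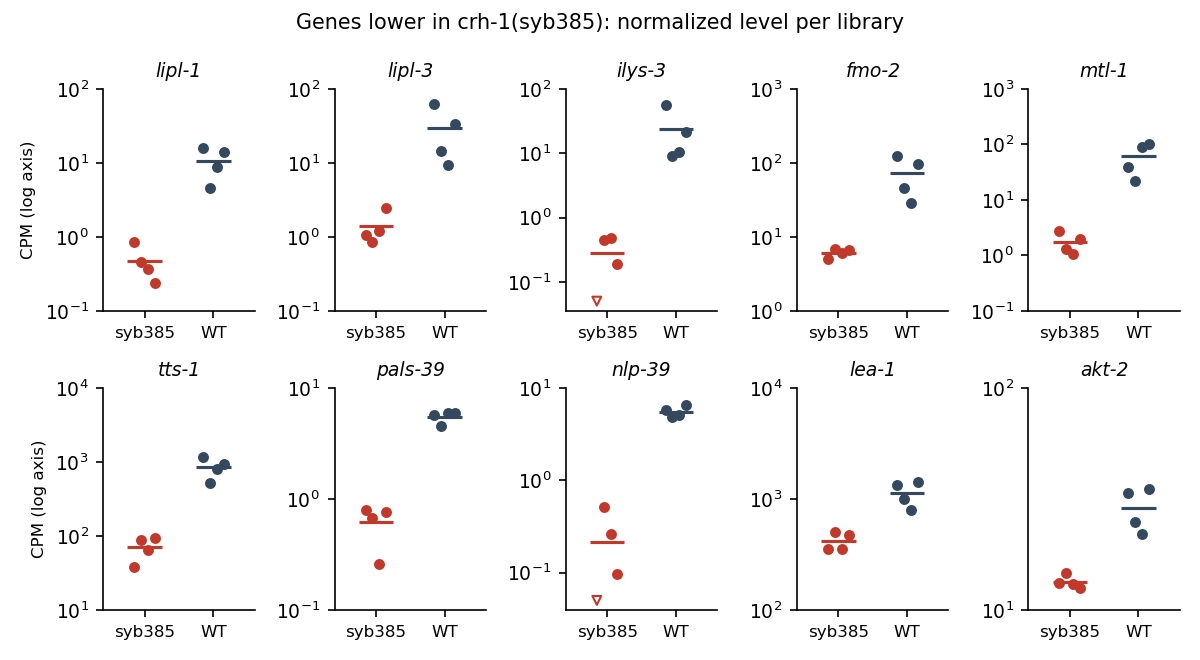
Level of 10 genes in each library, in TMM-scaled CPM on log axes, for crh-1(syb385) (red, left in each panel) and wild type (blue, right), with a horizontal line at the mean of 4 libraries. Open triangles stand for libraries with no count. In all 10 panels every mutant library lay below every wild-type library, from a difference of -1.11 (akt-2) to one of -6.44 (ilys-3) on the log2 scale.

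Calls among lysozymes and pals genes were mostly downward, while lectins were called in both directions. Of 13 tested lysozymes, enzymes that break bacterial cell walls, 4 were downregulated, lys-3, lys-5, ilys-2 and ilys-3, and the median was -0.66. The lys-5 call held in 2 of 8 fits with a library left out. The invertebrate-type lysozyme ilys-3 had 0, 0.453, 0.472 and 0.192 CPM in crh-1(syb385), against 56.0, 9.19, 10.3 and 21.4 CPM in wild type (log2 fold change -6.44, standard error 0.75, edgeR adjusted p = 5.72e-05). Wild type replicate 1 was highest, and without it the log2 fold change was -5.60. The abundant lys-7, chosen after its values were seen, had 134, 145, 139 and 137 CPM in crh-1(syb385), against 206, 267, 270 and 283 CPM in wild type, under 2-fold (log2 fold change -0.89, edgeR adjusted p = 7.72e-05). Its groups were far apart for their spread. Of 21 tested pals genes, a family in which several members respond to intracellular pathogens, 5 were downregulated and pals-1 was upregulated, a call lost without replicate 1 of either genotype, and the median was -0.94. For pals-39 the level was 0.807, 0.679, 0.262 and 0.767 CPM in crh-1(syb385), against 5.69, 4.57, 5.94 and 6.03 CPM in wild type (log2 fold change -3.13, standard error 0.41, edgeR adjusted p = 0.000153). For pals-32 it was 0.403, 0.113, 0.0524 and 0.240 CPM in crh-1(syb385), against 8.58, 4.85, 2.45 and 5.78 CPM in wild type (log2 fold change -4.68, standard error 0.50, edgeR adjusted p = 2.96e-05). Both separated the genotypes completely. Members of the pals family resemble each other, so reads may be shared between them.

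C-type lectins, secreted sugar-binding proteins many of which respond to bacteria, gave 10 upregulated and 13 downregulated genes, 8.93% and 11.6% of those tested, with a median of 0.07 (-0.08 with total count scaling). These counts were 6 to 14 and 8 to 14 with 1 library left out, the fewest upward calls coming without replicate 4 of crh-1(syb385) and the fewest downward ones without its replicate 1. The falls were the larger ones, clec-76 (-5.0), clec-11 (-4.57), clec-61 (-4.18) and, chosen after its value was seen, clec-60 (-3.52) on the log2 scale, and the rises other than clec-209 were at most 1.85 (clec-190). Counts of clec-209 were 13, 5, 14 and 10 in crh-1(syb385), against 1, 0, 0 and 0 in wild type. Those of clec-11 were 0, 2, 2 and 0 in crh-1(syb385), against 49, 14, 27 and 24 in wild type, so the size of its fall is uncertain. Among 54 tested antimicrobial peptide genes, 8 were downregulated and 3 upregulated, and these became 9 and 9 without wild type replicate 3. Without wild type replicate 1 there were 4 downregulated and 1 upregulated, and without replicate 1 of crh-1(syb385) 5 were downregulated. The saposin-like spp-2 had 15.6, 23.1, 13.5 and 27.2 CPM in crh-1(syb385), against 82.0 to 168 CPM in wild type (log2 fold change -2.52, standard error 0.26, edgeR adjusted p = 2.24e-05). The secreted SCP/TAPS protein gene scl-2 had 10.9, 17.7, 21.2 and 21.5 CPM in crh-1(syb385), against 135, 75.1, 106 and 161 CPM in wild type (log2 fold change -2.74, standard error 0.26, edgeR adjusted p = 1.15e-05). Neither overlapped between genotypes. In the same list of 11 genes, scl-6, lon-1 and scl-24 were upregulated, and 1 was without replicate 1 or 4 of either genotype. Counts of scl-24 were only 4, 0, 3 and 6 in crh-1(syb385), against 0 in every wild-type library, so its groups overlapped and the size of its rise is uncertain. All 3 called genes of 21 chitinases and chitinase-like genes fell, and of 17 infection response genes irg-1, which worms switch on when toxins block translation, fell by 2.66 on the log2 scale (edgeR adjusted p = 0.00521) with wild type replicate 1 inside the mutant range, while dod-24 and hrg-7 rose.

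Enzymes that modify foreign compounds changed in both directions. Of 62 tested cytochrome P450 genes, 8 were upregulated and 9 downregulated. The upregulated ones included cyp-35A3, cyp-35A4, cyp-35A5 and cyp-35C1, members of subfamilies known to respond to xenobiotics, as well as cyp-14A1 and cyp-14A2, of which cyp-35A5, cyp-35C1 and cyp-14A1 were chosen after their values were seen. The level of cyp-35A3 was 13.2, 19.9, 5.98 and 15.9 CPM in crh-1(syb385), against 0.686, 2.42, 3.60 and 1.66 CPM in wild type (log2 fold change 2.72, standard error 0.41, edgeR adjusted p = 0.000465). The largest fall was that of cyp-37B1, with 0.555, 0.113, 0 and 0.383 CPM in crh-1(syb385), against 17.5, 3.78, 3.98 and 11.8 CPM in wild type (log2 fold change -5.08, standard error 0.69, edgeR adjusted p = 0.000183). Neither gene had overlapping groups. Of 61 tested UDP-glucuronosyltransferases, which attach sugars to such compounds, 10 were upregulated and 6 downregulated, led by ugt-30 (3.27 on the log2 scale), ugt-32 (2.93), ugt-18 (-2.52) and ugt-66 (-2.37). The upward calls numbered 16 when wild type replicate 3 was left out, and the downward calls 3 when it was wild type replicate 1. Of 41 tested glutathione S-transferases 3 were upregulated, gst-26, gst-35 and gst-10, and 9 were upregulated without wild type replicate 3 and 5 without replicate 3 of crh-1(syb385). Among redox enzymes, the glutathione peroxidase gpx-5 had 53.6, 49.3, 39 and 45.8 CPM in crh-1(syb385), against 20.3, 18.5, 19.4 and 16.7 CPM in wild type (log2 fold change 1.32, standard error 0.13, edgeR adjusted p = 1.23e-05), and gpx-6, gpx-7 and sod-4 were downregulated, the gpx-7 call being kept in 5 of 8 fits with a library left out. In 17 genes of one-carbon and sulfur amino acid metabolism, the cystathionine gamma-lyases cth-1 and cth-2 were called, both upward. The values of cth-2 were 174, 162, 156 and 156 CPM in crh-1(syb385), against 40.5, 79.6, 86.1 and 57.1 CPM in wild type (log2 fold change 1.30, standard error 0.17, edgeR adjusted p = 0.000167). The glycerol-3-phosphate dehydrogenase gpdh-1, which makes glycerol under osmotic stress, had 16.6, 16.1, 11.3 and 12.6 CPM in crh-1(syb385), against 3.77, 4.90, 6.37 and 6.11 CPM in wild type (log2 fold change 1.42).

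Among called genes with a mean of at least 1 CPM in the mutant, amt-1, one of 5 tested ammonium transporter genes, had the largest rise. It had 10.4, 12.9, 7.76 and 11.1 CPM in crh-1(syb385), against 0.686, 0.280, 0.599 and 0.291 CPM in wild type (log2 fold change 4.52, standard error 0.40, edgeR adjusted p = 8.53e-06). The transporter amt-4 rose as well, at 30.7, 19.4, 27.4 and 27.5 CPM in crh-1(syb385), against 11.2, 7.27, 12.3 and 11.2 CPM in wild type (log2 fold change 1.33, standard error 0.18, edgeR adjusted p = 0.000213). Mutant and wild-type libraries were separate in both. Among genes known only by a sequence name, C35A11.4 stood at 16, 10.6, 13 and 11.8 CPM in crh-1(syb385), against 0.686, 0.653, 2.78 and 1.21 CPM in wild type (log2 fold change 3.29, standard error 0.34, edgeR adjusted p = 2.32e-05), and T07G12.5 at 0.605, 0.905, 1.10 and 1.25 CPM in crh-1(syb385), against 36.7, 16.7, 26.6 and 40.6 CPM in wild type (log2 fold change -4.96, standard error 0.31, edgeR adjusted p = 5.96e-07). T22F3.11 had 0, 0.283, 0.105 and 0.0958 CPM in crh-1(syb385), against 64.1, 9.84, 1.80 and 17.5 CPM in wild type, a fall whose size depended on wild type replicate 1 (log2 fold change -7.57, and -6.28 without that library). The gene K08D8.11, chosen after its values were seen, had 15, 8, 17 and 18 counts in crh-1(syb385), against 0 in every wild-type library, and was below 1 CPM throughout. F21C10.10 had 35.5, 45.7, 47.4 and 51.6 CPM in crh-1(syb385), against 565, 284, 219 and 315 CPM in wild type, without overlap (log2 fold change -2.94). W02D7.11 had 0, 0, 0 and 1 counts in crh-1(syb385), against 45, 26, 13 and 51 counts in wild type. The cathepsin B-like protease cpr-2 had counts in a single mutant library, at 0.210 CPM in replicate 3 of crh-1(syb385), against 8.43, 3.08, 0.763 and 3.74 CPM in wild type.

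Cuticle collagens had more called genes than any other list, and most of the calls were upward. Cuticle collagens are secreted by the epidermis, each at set times of the molting cycle. Of 135 tested collagen genes, 44 (32.6%) were upregulated and 5 downregulated, with a median of 0.90. Their summed level was 38300, 36200, 33200 and 35600 CPM in crh-1(syb385), against 13000, 21000, 24300 and 15900 CPM in wild type. Every mutant sum was higher than every wild-type sum, with wild type replicate 1 lowest and replicate 3 highest within wild type. The upregulated count was 21 without wild type replicate 1, 22 without wild type replicate 4, 26 and 28 without replicates 1 and 4 of crh-1(syb385), 62 without wild type replicate 3, 55 with wild type replicates 2 and 4 alone and 28 with total count scaling, where 12 were downregulated. The adult collagen col-19 had 1590, 1560, 1390 and 1510 CPM in crh-1(syb385), against 312, 717, 973 and 599 CPM in wild type (log2 fold change 1.22, standard error 0.23, edgeR adjusted p = 0.00245). Without wild type replicate 1 it was at 0.99, under 2-fold. For col-93 the level was 1660, 1580, 1390 and 1570 CPM in crh-1(syb385), against at most 604 CPM in wild type (log2 fold change 2.0, standard error 0.35, edgeR adjusted p = 0.00121). Several upregulated members, among them dpy-13, dpy-4, sqt-1, sqt-2, rol-1, bli-2 and bli-6, are named for body shape or blister mutants and were chosen after their values were seen, and their log2 fold changes lay between 1.53 (sqt-2) and 2.19 (dpy-4). With a library left out, the calls of dpy-4, sqt-1 and rol-1 held in 8 of 8 fits, that of bli-6 in 3, those of dpy-13 and sqt-2 in 2 and that of bli-2 in 1. For dpy-13 and sqt-2, wild type replicate 3 was inside the mutant range. The collagen col-95 fell instead, to 132, 106, 222 and 156 CPM in crh-1(syb385), against 296, 540, 800 and 446 CPM in wild type (log2 fold change -1.76, standard error 0.32, edgeR adjusted p = 0.00193). Many collagen genes are similar in sequence, so that reads may be shared within the family.

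Calls at 2-fold among zona pellucida domain, molting and patched-related genes were downward. Of 33 tested zona pellucida domain genes, which shape the cuticle and other apical matrices, 9 were downregulated, and 31 of the 33 had a negative log2 fold change. The list summed to 556, 642, 637 and 573 CPM in crh-1(syb385), against 1470, 1010, 603 and 1060 CPM in wild type. Wild type replicate 3 lay inside the mutant range and wild type replicate 1 far above it, and the count became 1 without replicate 1, 12 without replicate 3 and 8 with replicates 2 and 4 alone. It was 2 to 5 without any one of wild type replicates 2 and 4 and crh-1(syb385) replicates 1, 2 and 4. A list of 24 molting regulators behaved alike in its sums, with 982, 1120, 1080 and 1030 CPM in crh-1(syb385), against 2300, 1620, 971 and 1760 CPM in wild type, and 2 of its members were called, both downward, and 4 without wild type replicate 3. The cuticlin cut-3 had 8.22, 5.94, 10.1 and 3.74 CPM in crh-1(syb385), against 63.1, 34.3, 7.14 and 21.4 CPM in wild type (log2 fold change -2.17, standard error 0.54, edgeR adjusted p = 0.0121). Only wild type replicate 3 overlapped the mutant values. Of 32 Hedgehog-related genes, which in worms act mainly in the epidermis and its matrix, 6 fell and 5 rose, and 3 fell without wild type replicate 1 and without replicate 2 or 4 of crh-1(syb385). The warthog gene wrt-1 had 7.31, 9.11, 11.2 and 8.0 CPM in crh-1(syb385), against 46.5, 27, 11.8 and 23.5 CPM in wild type (log2 fold change -1.61, standard error 0.32, edgeR adjusted p = 0.00328), and grd-3 rose by 2.02 on the log2 scale (edgeR adjusted p = 0.000148). The list member qua-1, needed for molting, had 4.44, 5.38, 6.34 and 5.61 CPM in crh-1(syb385), against 17.2, 17.6, 10.2 and 15.8 CPM in wild type (log2 fold change -1.48, standard error 0.23, edgeR adjusted p = 0.000626). Of 28 tested patched-related genes, relatives of the Hedgehog receptor, 5 were downregulated, and 8 without wild type replicate 3. By the adjusted p alone 5 were higher and 7 lower, and the list summed to 1230, 1330, 1170 and 1290 CPM in crh-1(syb385), against 1290, 1150, 685 and 1180 CPM in wild type, with overlap. The member ptr-10 had 2.22, 3.17, 3.98 and 4.12 CPM in crh-1(syb385), against 10.3, 9.42, 11.4 and 8.64 CPM in wild type (log2 fold change -1.56, standard error 0.31, edgeR adjusted p = 0.00342), with no overlap and no outlying wild-type library. How far the differences between wild-type libraries enter the counts of these lists was not tested.

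**Figure D4:**
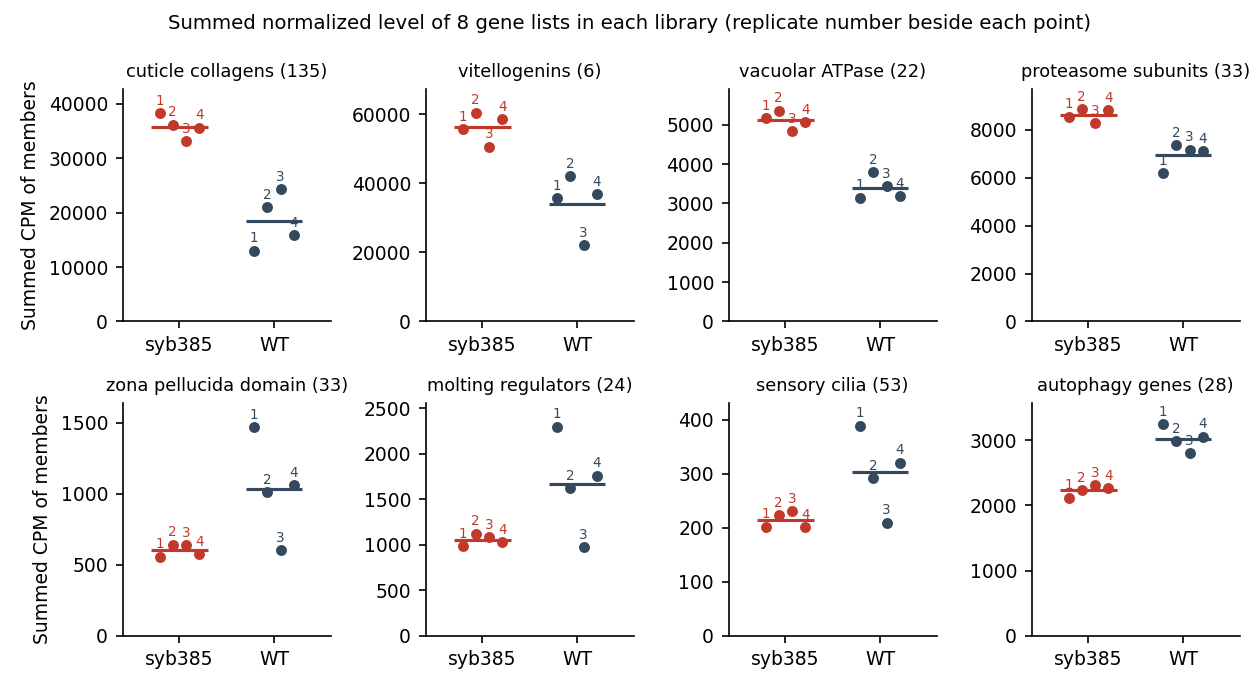
Summed level of 8 gene lists in each library, in TMM-scaled CPM, for crh-1(syb385) (red, left) and wild type (blue, right), with the replicate number beside each point, a line at the mean and the number of tested members after each name. Collagens, vitellogenins, V-ATPase and proteasome subunits were higher in every mutant library, autophagy genes were lower in every one, and for zona pellucida, molting and cilia genes wild type replicate 3 sat at the mutant level and replicate 1 highest.

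Calls among genes of sensory cilia were downward. Of 53 tested genes for sensory cilia and intraflagellar transport, the motor-driven traffic that builds cilia, 11 were downregulated and 49 had a negative log2 fold change, with a median of -0.95. The sums were 202, 223, 230 and 201 CPM in crh-1(syb385), against 389, 291, 209 and 320 CPM in wild type. As in the matrix lists, wild type replicate 3 was at the mutant level and replicate 1 was highest, and the count was 3 without replicate 1, 19 without replicate 3 and 10 with replicates 2 and 4 alone. It was 4 to 6 without any one of wild type replicates 2 and 4 and crh-1(syb385) replicates 1, 2 and 4. The dynein heavy chain of cilia, che-3, had 1.76, 1.75, 2.46 and 2.87 CPM in crh-1(syb385), against 11, 4.29, 2.23 and 6.82 CPM in wild type (log2 fold change -1.45, standard error 0.37, edgeR adjusted p = 0.0147). Its call was lost when replicate 1 of either genotype was left out (log2 fold change -0.99 without wild type replicate 1), and the edgeR adjusted p was at most 0.0547 when libraries were left out singly. The transport particle gene ift-74 had a log2 fold change of -1.49, and its call held in 2 of 8 fits with a library left out. Other called members were mks-3, mks-5, mks-6, nphp-1 and nphp-4 of the transition zone at the base of the cilium, chosen after their values were seen, with log2 fold changes between -1.43 (mks-3) and -1.02 (nphp-4). With a library left out, the call of mks-6 held in 8 of 8 fits and that of nphp-1 in 7, but those of mks-3 and mks-5 in 2 and that of nphp-4 in 3, and the genotypes overlapped in these 3 genes.

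Genes for secreted signals included rises and falls. Of 96 tested neuropeptide genes 1 was upregulated, nlp-26, and 4 were downregulated. These shares of 1.04% and 4.17% were no higher than the 2.24% and 4.48% of all tested genes. The counts became 4 upward without wild type replicate 3 and 2 downward without replicate 1 of crh-1(syb385). The peptide gene nlp-39 had 0, 0.509, 0.262 and 0.0958 CPM in crh-1(syb385), against 5.83, 4.90, 5.07 and 6.57 CPM in wild type (log2 fold change -4.70, standard error 0.57, edgeR adjusted p = 8.05e-05). The wild-type libraries were close to each other here, and every mutant library was far below them. Among 24 tested insulin-like peptide genes, daf-28, which promotes reproductive growth over dauer arrest, had 5.70, 2.66, 2.57 and 3.31 CPM in crh-1(syb385), against 1.47, 0.746, 0.545 and 0.623 CPM in wild type (log2 fold change 2.07, standard error 0.36, edgeR adjusted p = 0.00142). The other called gene of this list, ins-23, fell instead, to 0.0504, 0.113, 0.105 and 0.383 CPM in crh-1(syb385), against 2.79, 0.56, 2.29 and 1.70 CPM in wild type, without overlap (log2 fold change -3.42, standard error 0.67, edgeR adjusted p = 0.00291). The TGF-beta ligand daf-7, made by the ASI neurons in fed worms, had 2.32, 6.51, 4.67 and 3.78 CPM in crh-1(syb385), against 0.637, 2.05, 1.25 and 1.79 CPM in wild type (log2 fold change 1.58, standard error 0.35, edgeR adjusted p = 0.00675). Neither daf-28 nor daf-7 had overlapping groups, and both are low in whole worms. Of the 18 tested genes of the DBL-1 and DAF-7 TGF-beta pathways, lon-1, which the DBL-1 pathway is known to repress, also rose, at 68.3, 69.6, 63.3 and 60.9 CPM in crh-1(syb385), against 18.4, 38.3, 38.9 and 26 CPM in wild type (log2 fold change 1.11, standard error 0.18, edgeR adjusted p = 0.000808, and 0.93 without wild type replicate 1). The DBL-1 pathway gene sma-10 fell by 1.0 on the log2 scale (edgeR adjusted p = 0.00101), a call at the 2-fold limit that held in 4 of 8 fits with a library left out. The oxygenase daf-36, which starts the synthesis of dafachronic acid hormones from cholesterol, rose by 1.42 (standard error 0.36, edgeR adjusted p = 0.0129).

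In large families of regulators the calls were downward, in shares not far from the 4.48% of all tested genes for nuclear hormone receptors and F-box genes. Of 186 tested nuclear hormone receptors, 14 (7.53%) were downregulated, with a median of -0.38, and 26 were with total count scaling. With the adjusted p alone 34 were lower (53 without wild type replicate 3), and 1 was higher. Of 222 tested F-box A, B and C genes, which mark proteins for degradation, 14 (6.31%) were downregulated, with a median of -0.25. Of 68 tested MATH and BTB domain genes, adaptors of ubiquitin ligases, 10 (14.7%) were downregulated, with a median of -0.19. These families have many similar members, so reads may be shared. Without wild type replicate 1 the downregulated counts were 10, 13 and 9, without wild type replicate 3 they were 19, 12 and 11, and 9 F-box genes were called without replicate 2 of crh-1(syb385).

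A further set of lists had small shifts in many members. With the adjusted p under 0.05 and no fold threshold, 1077 genes (7.42% of those tested) were higher and 1289 (8.88%) lower. Of 22 tested subunits of the vacuolar ATPase, the proton pump that acidifies lysosomes, 18 were higher by this rule, and the median was 0.57 (0.42 with total count scaling). Without overlap between genotypes, over all tested genes, 1421 genes (9.79%) were higher and 1299 (8.95%) lower, and 20 of the 22 subunits were higher in that sense. The summed level was 5160, 5360, 4840 and 5070 CPM in crh-1(syb385), against 3150, 3790, 3430 and 3190 CPM in wild type. The subunits vha-3 and vha-6 were chosen after their values were seen. The subunit vha-3 had 219, 208, 193 and 208 CPM in crh-1(syb385), against 91.1 to 131 CPM in wild type (log2 fold change 0.94, standard error 0.12, edgeR adjusted p = 0.000101). The intestinal subunit vha-6 had 216, 270, 173 and 228 CPM in crh-1(syb385), against 109, 170, 100 and 116 CPM in wild type (log2 fold change 0.84, edgeR adjusted p = 0.00256). The count of higher subunits stayed between 16 and 19 when 1 library was left out, and was 15 with total count scaling.

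Autophagy genes that passed this test were lower. Of 28 tested genes for autophagy, the delivery of cell contents to lysosomes, 10 were lower by the adjusted p alone and 26 had a negative log2 fold change, with a median of -0.34. Their sums were 2120, 2240, 2310 and 2270 CPM in crh-1(syb385), against 3250, 2990, 2800 and 3060 CPM in wild type, with no overlap. The ubiquitin-like membrane protein lgg-1 had 393, 445, 467 and 435 CPM in crh-1(syb385), against 650, 598, 881 and 616 CPM in wild type (log2 fold change -0.66, standard error 0.12, edgeR adjusted p = 0.00178). The cargo receptor sqst-1 had 70.5, 101, 83.0 and 88.7 CPM in crh-1(syb385), against 211, 191, 101 and 170 CPM in wild type (log2 fold change -0.97, standard error 0.18, edgeR adjusted p = 0.00174), and wild type replicate 3 matched the highest mutant library. Both genes were chosen after their values were seen. The count was 21 without wild type replicate 3, 7 at the least when another library was left out, and 23 with total count scaling. The transcription factor hlh-30, a regulator of autophagy and lysosome genes, had a log2 fold change of -0.43 (edgeR adjusted p = 0.106).

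In several housekeeping lists and in muscle genes, most members that passed the adjusted p were higher, by less than 2-fold. By the adjusted p alone, 19 of 34 genes of sugar metabolism were higher and 2 lower, 12 of 26 TCA cycle genes, 13 of 18 cytosolic chaperones, 13 of 33 proteasome subunits and 19 of 41 muscle sarcomere and actin genes were higher. The list medians were 0.37, 0.32, 0.39, 0.28 and 0.32, and 0.23, 0.17, 0.25, 0.13 and 0.17 with total count scaling, where the numbers of higher genes were 14, 5, 8, 3 and 14. With 1 library left out, the higher proteasome subunits numbered 6 to 25, highest without wild type replicate 3 and lowest without replicate 4 of crh-1(syb385). The TCA cycle genes numbered 7 to 16, lowest without replicate 1 or 2 of crh-1(syb385), and the chaperones 8 to 15, lowest without its replicate 2 or 4. All 33 proteasome subunits had a positive log2 fold change. The glycolytic enolase enol-1 had 794, 864, 739 and 842 CPM in crh-1(syb385), against 484, 569, 462 and 532 CPM in wild type (log2 fold change 0.66, standard error 0.09, edgeR adjusted p = 0.000273). The chaperone hsp-90 had 3180, 3350, 2950 and 3220 CPM in crh-1(syb385), against 2110, 2370, 2010 and 2470 CPM in wild type (log2 fold change 0.50, edgeR adjusted p = 0.00191). These 2 genes, chosen after their values were seen, did not overlap between genotypes. The abundant actin act-1 was higher too (log2 fold change 0.53, edgeR adjusted p = 0.00345), with near-identical copies in act-2 and act-3. Of 81 cytosolic ribosomal protein genes none was called by edgeR or DESeq2 and none passed the edgeR adjusted p alone, but 23 passed it as higher without wild type replicate 3. With all libraries 15 were higher and 1 lower at an unadjusted p under 0.05, and their median was 0.15 (0.00 with total count scaling).

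Most germline genes that passed the adjusted p were higher as well, but germline lists differed in their medians. The median was 0.03 for 52 small RNA genes, -0.01 for 42 meiotic genes and -0.13 for 40 zygotic embryo genes, against -0.05 over all tested genes. It was 0.16 for 32 DNA replication genes, 0.36 for 13 P granule genes and 0.46 for 40 sperm genes outside the major sperm proteins. Of 22 genes of the eggshell and vitelline layer, 14 were higher and 1, cpg-8, named after its value was seen, was lower by the adjusted p alone, with a median of 0.43, and of 24 maternal RNA-binding regulators 10 were higher, with a median of 0.33. With total count scaling 7 and 8 were higher, and without replicate 4 of crh-1(syb385) 9 eggshell genes were. The yolk receptor rme-2 of oocytes, chosen after its values were seen, had 727, 769, 666 and 790 CPM in crh-1(syb385), against 473, 562, 345 and 523 CPM in wild type (log2 fold change 0.63, standard error 0.13, edgeR adjusted p = 0.00331). Its groups were separate, with wild type replicate 3 lowest. The germline gene pie-1 had a log2 fold change of 0.26 (edgeR adjusted p = 0.161). Of 27 tested major sperm protein genes none was called by edgeR and 1 was by DESeq2, and 7 were higher at an unadjusted p under 0.05. All 27 had a positive log2 fold change, but these genes are near-identical copies and their summed level was low, 167, 178, 101 and 181 CPM in crh-1(syb385) against 81.1 to 134 CPM in wild type, with overlap. Differences in the amount of germline per worm were not tested.

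**Figure D5:**
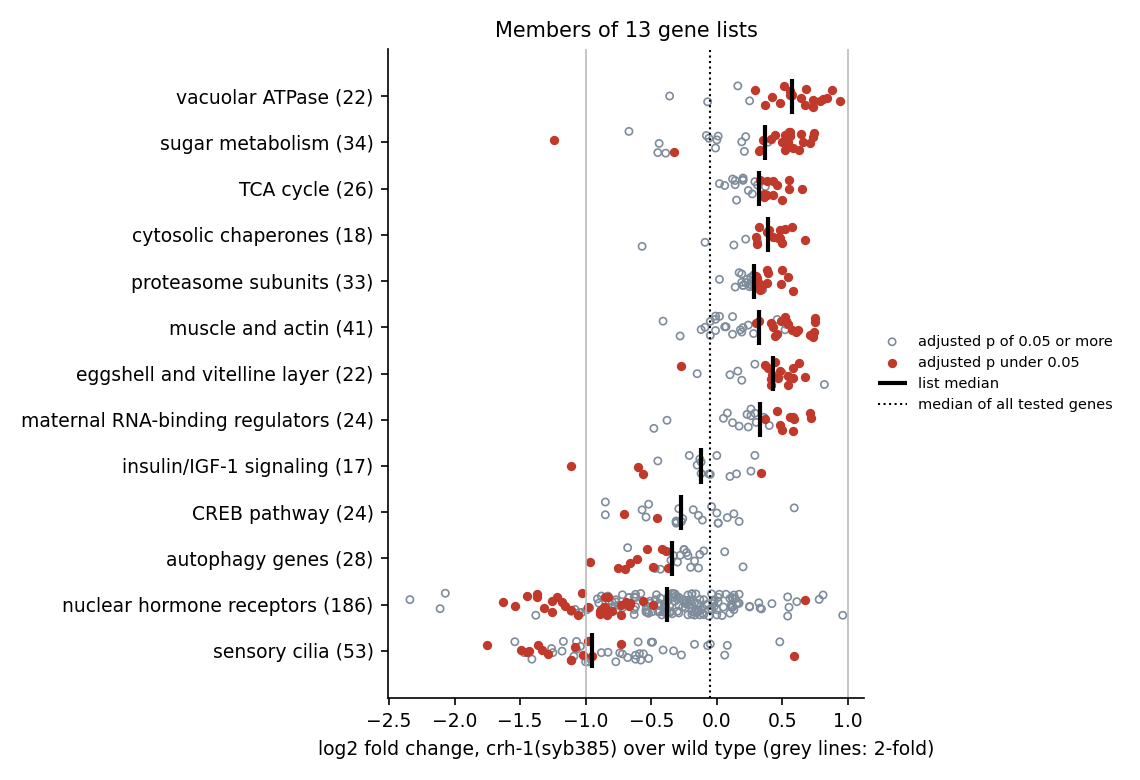
Log2 fold changes, crh-1(syb385) over wild type, of the members of 13 gene lists, one point a gene, with a black bar at each list's median, a dotted line at the median of all tested genes (-0.05) and grey lines at 2-fold. Filled points passed an edgeR adjusted p of 0.05. The V-ATPase median lay at 0.57, that of the CREB pathway at -0.27 and that of sensory cilia genes at -0.95.

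Around CREB itself little was called. Of 24 tested genes of the CREB pathway, covering its kinases, phosphatases, adenylyl cyclases, phosphodiesterases and coactivators, none was called by edgeR or DESeq2, 2 were lower by the adjusted p alone, 3 were lower at an unadjusted p under 0.05 and the median was -0.27. The coactivator crtc-1 had 10.0, 10.9, 9.91 and 13.2 CPM in crh-1(syb385), against 23.4, 16, 13 and 19.4 CPM in wild type (log2 fold change -0.71, standard error 0.18, edgeR adjusted p = 0.0166). The wild type replicate 3 value lay just under the highest mutant value. The calcineurin subunit cnb-1 had 31.4, 31.9, 31.4 and 29.8 CPM in crh-1(syb385), against 49.4, 34.5, 42.2 and 45.1 CPM in wild type (log2 fold change -0.46, standard error 0.12, edgeR adjusted p = 0.0132). Both were chosen after their values were seen. Without wild type replicate 3, 9 of the 24 were lower by the adjusted p alone. The coactivator cbp-1 was at -0.14 (edgeR adjusted p = 0.659) and the protein kinase A subunit kin-1 at 0.17 (edgeR adjusted p = 0.569). Of other genes that the study works with, act-1 passed the adjusted p as given above, while these did not: the RNA-editing factor adr-1 was at -0.11 (edgeR adjusted p = 0.623), the GTPase cdc-42 at 0.06 (edgeR adjusted p = 0.787), the neuronal rab-3 at 0.17 (edgeR adjusted p = 0.641) and the coelomocyte gene unc-122 at -0.14 (edgeR adjusted p = 0.9).

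Called genes were spread over all chromosomes. Chromosome V held 97 upregulated and 176 downregulated genes of 2801 tested (3.46% and 6.28%), and chromosome III, which carries crh-1, held 23 and 71 of 2242 (1.03% and 3.17%). Within 1 Mb of crh-1, 5 of 270 tested genes were upregulated (1.85%) and 2 downregulated (0.741%). These were the adjacent collagen genes col-92, col-93 and col-94 from 10982166 to 10987843, fmo-3 and T28D6.3 among the upregulated, and col-95, from 11703979 to 11705085, and cut-6 among the downregulated. With a library left out, the col-92 call held in 6 of 8 fits and the cut-6 call in 4. Of 432 tested pseudogenes 7 were upregulated and 28 downregulated, and of 64 genes annotated as ncRNA 6 were downregulated, tts-1 among them. Over all 14511 tested genes the calls were 325 (2.24%) upward and 650 (4.48%) downward. The upregulated genes had a median level of 5.94 and the downregulated genes one of 4.06 CPM per kilobase of exon, against 10.2 over all tested genes, and the median exonic lengths were 1195, 1279 and 1300 nt.

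The 680 called genes outside the lists held further families that share a gene name, found after their values were seen. The lipocalin-related genes lpr-3, lpr-4, lpr-5 and lpr-6 were downregulated with log2 fold changes of -1.01, -1.23, -1.03 and -1.22, and lpr-1 and lpr-7 likewise (-1.28 and -1.31). These were 6 of 7 tested lpr genes, and the calls of lpr-3, lpr-4, lpr-5 and lpr-7 were lost without replicate 1 of either genotype. The order of the wild-type libraries for lpr-3, whose product sits in apical matrices, was that of the zona pellucida list at both ends, with 27.6, 46.3, 43.3 and 42.1 CPM in crh-1(syb385), against 121, 70.6, 40.9 and 88.5 CPM in wild type. Of 12 tested pho genes, which encode acid phosphatases and relatives, 4 were upregulated and none downregulated, the intestinal pho-1 with 55.1, 44.5, 42.2 and 42.6 CPM in crh-1(syb385), against 5.2, 20.5, 24.1 and 11.9 CPM in wild type (log2 fold change 1.58, edgeR adjusted p = 0.00278), and pho-7, pho-8 and pho-13 with log2 fold changes of 1.09, 1.75 and 1.55. The pho-7 call held in 3 of 8 fits with a library left out, and pho-9 and pho-6 had log2 fold changes of -0.70 (edgeR adjusted p = 0.143) and -0.43 (edgeR adjusted p = 0.495). Of 5 tested pcp genes, serine carboxypeptidase-like, pcp-2, pcp-3 and pcp-4 rose by 1.89, 1.24 and 1.31 (edgeR adjusted p-values 0.00208, 0.000236 and 0.000786). Among lists with few calls, metal handling had 2 upregulated and 3 downregulated genes of 34, osmotic stress genes 2 and 1 of 10, lysosomal proteases 2 and 1 of 21, and the 49 tested chemoreceptors had 3 downregulated genes (1 without replicate 1 of crh-1(syb385)). Without replicate 3 of crh-1(syb385) or wild type replicate 2, 4 lysosomal proteases were upregulated. The 8 tested genes of dauer and steroid hormone signaling had daf-36 upregulated and ncr-2, a relative of the cholesterol transporter NPC1, downregulated, with the ncr-2 call kept in 2 of 8 fits with a library left out. Of 15 hypodermis genes 1, col-19, was upregulated. The remaining 31 lists include the germline lists given above by their medians only. With 845 tested memberships, these 31 lists had 8 upregulated and 10 downregulated memberships in all and at most 3 in one direction in any list.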

How the data were processed

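RNA from whole day 1 adults was poly(A)-selected and sequenced from both ends in 4 libraries of each of 3 genotypes. The authors demultiplexed reads with bcl2fastq 2.19, aligned them to WBcel235 with STAR 2.7.5a and counted reads on exons per gene with featureCounts 1.5.0, per the submitters' processing notes and the paper's methods, and deposited the raw counts of each gene as one table. DESeq2 1.26.0 is also named there. Strand, annotation release and the handling of reads with several matches are not given in the sources used here. Total counts of the 8 libraries compared were between 16348586 and 22174508, and a gene with fewer than 3 counts in a library is near the counting limit.

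Counts were tested with edgeR 4.0.16 (R 4.3.3): genes were kept by filterByExpr (minimum count 10, minimum total 15), scaled by TMM and fitted with a term for genotype and no other over the 12 libraries (quasi-likelihood F-test, prior count 0.125). Genes were called at a Benjamini-Hochberg adjusted p under 0.05 and 2-fold or more. The script was tested on simulated data. Alternatives were DESeq2 1.42.0, other scalings, filters and thresholds, a replicate block, the 8 libraries alone and each library left out. Figures were drawn with matplotlib 3.10.9 from tables made with pandas 2.3.3. Libraries were grouped by their labels.

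Named genes were those the study names, the 10 largest changes in each direction without overlap and with a mean of at least 1 CPM in the higher group, the 10 called genes in each direction with the highest level per length, and up to 3 called members of each list in each direction. Other genes are said to have been chosen after their values were seen. The genotypes, lists and rules were chosen with earlier results of these data known. A list of mitochondrial genome genes matched no symbol, so it holds no values. By position, 14 genes of mitochondrial DNA were tested, with 0 upregulated, 1 downregulated and a median log2 fold change of -0.43. Sequence around the deletion and promoters was not analysed here.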

Additional observations from a re-analysis of the deposited data

Results flagged for a closer look

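Among 252 groups of 4 libraries whose gene levels or list sums are given above, 8 had a library far from the other 3 by Dixon's test, and chance gives about 1 in 20. In crh-1(syb385), replicate 2 had the highest sod-4 level (13.8 CPM, against 10.9 to 11.4 CPM in the others), replicate 3 was the one with any cpr-2 (0.21 CPM), replicate 4 had the highest lipase sum (318 CPM, others 298 to 300 CPM) and replicate 3 the lowest sum of cytosolic ribosomal proteins (79700 CPM, others 88000 to 88600 CPM). In wild type, replicate 3 had the highest sum of antimicrobial peptide genes (1800 CPM, others 1260 to 1330 CPM), the highest sum of cytosolic ribosomal proteins (84600 CPM, others 75000 to 76500 CPM) and the lowest sum of muscle genes (9680 CPM, others 11800 to 12100 CPM). Wild type replicate 1 had the highest sum of genes for fatty acid synthesis (5910 CPM, others 3620 to 3910 CPM).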

How the results depend on the processing

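The counts of 325 upregulated and 650 downregulated genes became 78 and 149 with a log2 fold change above 2, 1077 and 1289 with no fold threshold, and 34 and 87 with the 2-fold threshold inside the test (glmTreat). With 1 library left out they ranged from 254 to 517 upregulated and from 426 to 888 downregulated genes. The lowest counts, 254 and 426, came without wild type replicate 1 and the highest, 517 and 888, without wild type replicate 3. With wild type replicates 2 and 4 alone, a setting chosen after the data were seen, there were 461 and 536, and 46.2% were upward. Total count scaling gave 243 and 967. DESeq2 gave 395 and 794 and shared 947 of the 975 calls. With the replicate number as a block there were 316 and 542. Deviations of same-numbered libraries correlated at -0.053, -0.014, 0.029 and 0.051. The labels do not say whether the numbers pair the samples, and these correlations cannot decide it, since a small shared effect would not show in them. No called gene named here changed direction under any alternative. Of the named genes, 60 lost their call without wild type replicate 1, 9 without wild type replicate 3 and 48 without replicate 1 of crh-1(syb385). For crh-1 itself the fold change stayed between -0.07 and 0.14 on the log2 scale in all of these settings, with an edgeR or DESeq2 adjusted p of at least 0.391. The 8 libraries of the 2 genotypes alone gave 255 upregulated and 512 downregulated genes and shared 754 of the 975 calls. Genes of few counts are limited by depth. Pooled whole worms, 1 deletion line and unequal wild-type libraries limit every comparison.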
